A study of Homo sapiens with 6 samples.

Results

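The short arm of human chromosome 5 was described here as a run of 130 genes, of 18378 genes measured by a probe set of their own. The members were the genes that lie on chromosome 5 with a start before 48 Mb in the RefSeq gene table (GRCh38) and that have a probe set naming them alone, except HMGCS1 and symbols starting with ZNF, MIR or SNOR. The rule left out 3 measured genes of the arm, ZNF131, ZNF622 and HMGCS1. It kept 133 probe sets, since MARCHF11, NPR3 and FYB1 have a second one, and each gene was read from its probe set of highest mean signal. The arm was chosen by the log2 fold changes of its genes between the same 6 arrays. Its differences are therefore given as a description, and they support nothing by themselves.

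The experiment set HEK-BAHD1 cells beside HEK293-CT cells, with 3 arrays for each line. HEK293 is a widely used human cell line that was derived from embryonic kidney, and BAHD1 is a protein of heterochromatin, the compact and mostly silent form of chromatin. HEK-BAHD1 cells carry 1 integrated copy of a BAHD1 cDNA driven by the CMV promoter, whereas the isogenic HEK293-CT cells carry, according to the labels, a β-galactosidase sequence out of frame at that place and, according to the methods, an empty vector. Both lines were kept in Hygromycin B. Each line was 1 stable pool of transfectants grown in separate flasks, and the passage at extraction is given as different for HEK-BAHD1 replicates 1 and 2, so the spread between arrays is that of cultures of 1 pool per line.

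The targeted gene went the other way from what its label says. BAHD1 had a log2 signal of 6.75, 7.0 and 6.76 on the arrays labelled HEK-BAHD1, against 10.06, 9.81 and 9.93 on those labelled HEK293-CT, a log2 fold change of -3.10 (SE 0.093, adjusted p = 3.12e-05 by limma, 21062 probe sets). The study describes BAHD1 as overexpressed in HEK-BAHD1 cells, which is the opposite direction. The labels of the lines may thus be exchanged, and if so every sign, fall and rise below turns over. Every direction below is that of the labels as deposited, and the samples are called the arrays labelled HEK-BAHD1 and the arrays labelled HEK293-CT throughout. Of 6 genes used to check the line, NEFL (9.93) and CDH2 (10.15) lay high on the log2 signal scale, and PAX2 (5.74), LHX1 (5.74), NEFM (4.87) and SALL4 (4.51) did not. Markers of liver, blood and keratinocytes had a mean log2 signal between 3.13 (PTPRC) and 5.85 (KRT14). On the arrays labelled HEK-BAHD1, the neurofilament genes NEFL and NEFM were called higher and the globin gene HBB lower. Their part in the values below was not tested. In RNA from a whole culture, fewer cells of a kind and less RNA per cell cannot be told apart.

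Genes on a chromosome arm share no pathway. The arm runs from a tip that holds TERT, the catalytic subunit of telomerase, through a long gene-poor stretch of cadherin genes, to a gene-rich stretch near the centromere with the cohesin loader NIPBL, a row of cytokine receptors and the late complement components. Neighbouring genes can share a chromatin domain or a bidirectional promoter, and some neighbours have overlapping transcripts.

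Among the members, genes with a high signal were lower on the arrays labelled HEK-BAHD1, by a small amount, at the tip of the arm and near the centromere alike, and genes with a low signal did not show this. A gene was called at a Benjamini-Hochberg adjusted p under 0.05 by limma over all 21062 probe sets that name a gene, together with a difference of group medians above 0.2 on the log2 scale. By that rule 36 of the 130 members were called lower, where 6.39% of all probe sets tested were, and 6 were called higher, where 6.79% were. The other 88 were not called. The contrast chose the arm, so nothing is read from these shares. All 3 values lay below all 3 of the other line for 52 members, where this held for 16.9% of the probe sets, and above them for 16 members, where it held for 16.7%. The median log2 fold change of the 130 members was -0.06 (quartiles -0.25 and 0.08), and it ranged over the members between -0.86 for SELENOP and 0.44 for SLC12A7. The median of all 18248 other genes was 0.01.

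**Figure D1:**
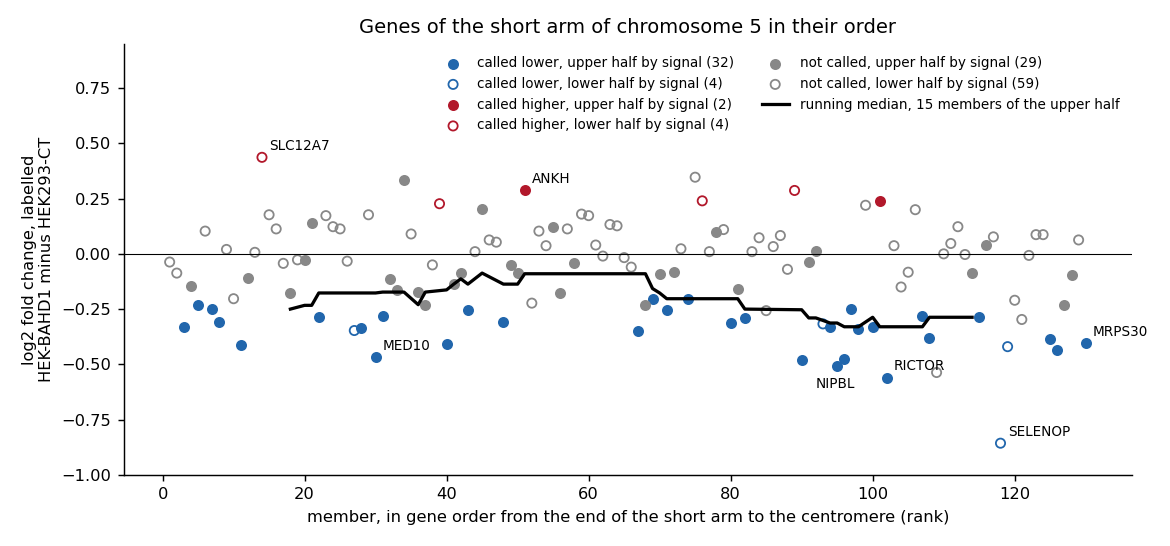
Log2 fold change of each of the 130 members (vertical axis, arrays labelled HEK-BAHD1 minus arrays labelled HEK293-CT) by rank in gene order (horizontal axis); filled points are the upper 50% by mean signal, open points the lower 50%, and the line is the median of 15 neighbouring filled points. The line stays below 0 along the whole arm, between -0.33 and -0.09, while most open points lie near or above 0.

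The genes were divided at a mean log2 signal of 6.47, the median over all genes, to set apart the transcripts near the background of the arrays. In the upper 50% by mean signal lay 63 members, of which 54 had a log2 fold change below 0 and 9 above 0. Of them 32 were called lower, where 10.0% of the 9187 genes of that signal were, and 2 were called higher, where 9.27% were. Their median log2 fold change was -0.23 (quartiles -0.33 and -0.09), a ratio of 0.853. Most members of high signal thus lay below 0. Of the 67 members in the lower 50%, 4 were called lower (5.97%, where 2.61% of the 9191 genes of that signal were). Another 4 were called higher, where 465 of those 9191 genes were. The median of these 67 members was 0.04, and they lay on both sides of 0. In the upper 50%, the 350 genes of the long arm of chromosome 5 had a median of -0.03, with 40 called lower and 27 called higher. The 9124 genes outside the short arm had a median of -0.01, with 890 called lower and 850 called higher.

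In bands of signal, set after the values were seen, the 54 members with a mean log2 signal of 8 or over had 28 genes called lower (51.9%, against 10.2% of the 5380 genes of that band outside the arm), 1 called higher and a median log2 fold change of -0.23. The 35 members between 5 and 8 had 7 called lower (20.0%, against 6.71% outside the arm), SELENOP among them, 4 called higher and a median of -0.03. The 41 members under 5 had 1 called lower (2.44%, against 1.56% outside the arm), 1 called higher and a median of 0.05. The median was thus below that of the other genes mainly at high signal, while falls were also called in the middle band. Outside the arm the same bands, from high to low signal, had medians of -0.03, 0.04 and 0.01. In the same order, 383 of 5380, 824 of 7288 and 104 of 5580 genes outside the arm were called higher. The log2 fold change went down with mean signal across the 130 members (Pearson correlation -0.47, Spearman correlation -0.52), and less so across the 637 genes of the long arm (Pearson -0.12, Spearman -0.17). These correlations are across genes on the same 6 arrays, which are not independent replicates, and they are a description.

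**Figure D2:**
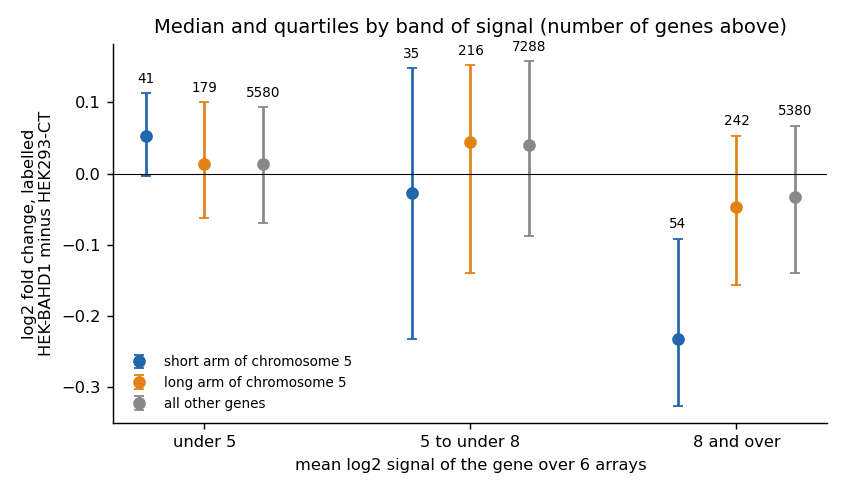
Median log2 fold change with quartiles (vertical axis, arrays labelled HEK-BAHD1 minus arrays labelled HEK293-CT) in 3 bands of mean log2 signal (horizontal axis) for the short arm, the long arm and all genes outside the short arm, with the number of genes over each bar. At a signal of 8 and over the 54 genes of the short arm have a median of -0.23, against -0.05 on the long arm, and in the lower bands the sets lie within 0.1 of each other.

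The displacement is given array by array as a description, since the same 6 arrays chose the arm. For every member of the upper 50% the value on an array was set against the mean of that gene over the 6 arrays. That mean holds both lines, so a deviation of 1 line below 0 puts the other above it. The median of these deviations was -0.11, -0.08 and -0.13 on the arrays labelled HEK-BAHD1 (replicates 1, 2 and 3), against 0.11, 0.10 and 0.09 on those labelled HEK293-CT. The lines did not overlap, and the 3 arrays of a line lay within 0.06 of each other. Of the 63 members, 55, 49 and 54 were below their own mean on the arrays labelled HEK-BAHD1, against 13, 9 and 13 on those labelled HEK293-CT. On the long arm the deviations were -0.01, 0.01 and -0.05 on the arrays labelled HEK-BAHD1, against 0.00, 0.03 and 0.02 on those labelled HEK293-CT, and these overlapped. The genes outside the short arm stayed between -0.02 and 0.02 on all 6 arrays.

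**Figure D3:**
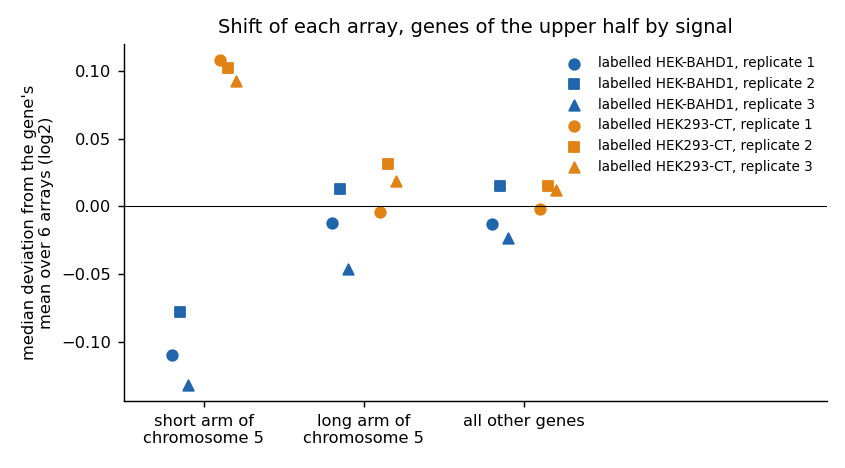
Median deviation of the genes in the upper 50% by signal from their own mean over 6 arrays (vertical axis, log2) for the short arm, the long arm and all genes outside the short arm; each point is 1 array, with the arrays labelled HEK-BAHD1 on the left of each pair. Of the 3 sets shown, only the short arm has the 3 arrays of each line apart, at -0.13 to -0.08 against 0.09 to 0.11. Smaller regions outside the arm were not set out by array.

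Along the arm the members were counted in 6 segments of 8 Mb. Beside the counts below, 10.0% of all 9187 genes in the upper 50% were called lower and 9.27% higher. The contrast chose the arm, so nothing is read from the counts. In the segment at the tip, which runs up to FASTKD3, 9 of 19 members of the upper 50% were called lower, and the log2 fold changes had a median of -0.23. In the next, 3 of 9 were called lower, 1 was called higher and the median was -0.09. The following pair of segments holds the cadherin genes and few transcripts of high signal, 3 and 2 members with medians of -0.04 and -0.29. These medians rest on too few genes to place them against the others. From GOLPH3 to RICTOR, 13 of 20 members were called lower, 1 was called higher and the median was -0.25. In the last segment of the arm, from TTC33 to MRPS30, 6 of 10 were called lower and the median was -0.29. The lowest of 49 running medians over 15 genes of the upper 50% was -0.33. It was first reached from BRIX1 to PRKAA1, and again in later windows up to that from NIPBL to PAIP1. The highest was -0.09 and ran from LOC442132 to BASP1. All segments of the arm thus had medians below 0 in the upper 50%, and the gene-poor middle held both the highest and the lowest of them, on 3 and 2 genes. Over all members, the medians from the tip to the centromere were -0.09, -0.05, 0.08, -0.06, -0.08 and -0.10, so the third segment lay above 0.

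The end of the arm was set by position, and the values there are given on both sides. Just inside, FGF10, a growth factor of branching organs, had a log2 signal of 4.47, 4.48 and 4.33 on the arrays labelled HEK-BAHD1, against 4.31, 4.49 and 4.29 on those labelled HEK293-CT. MRPS30, a protein of the mitochondrial ribosome at chr5:44808947-44815514, had 9.70, 9.73 and 9.76 on the arrays labelled HEK-BAHD1, against 10.10, 10.14 and 10.16 on those labelled HEK293-CT. FGF10, of low signal, overlapped between the lines, and MRPS30, of high signal, did not. Just outside, EMB, a membrane glycoprotein of the immunoglobulin superfamily, had 8.68, 8.67 and 8.63 on the arrays labelled HEK-BAHD1, against 8.84, 8.92 and 8.91 on those labelled HEK293-CT. PARP8 had 8.17, 8.15 and 8.05 on the arrays labelled HEK-BAHD1, against 8.12, 8.35 and 8.25 on those labelled HEK293-CT. The log2 fold change was 0.06 for FGF10, -0.40 for MRPS30, -0.23 for EMB and -0.12 for PARP8, and MRPS30 and EMB were called. EMB was called in none of the 6 fits that left out 1 array (adjusted p up to 0.0997 by limma). Beyond the threshold the medians of the upper 50% were -0.09 in the first 8 Mb segment of the long arm (1 of 13 called lower, 1 higher), -0.19 in the second (6 of 13 called lower), -0.07 in the third and 0.02 in the one after it. Of all genes in the upper 50%, 10.0% were called lower and 9.27% higher. In the upper 50%, no segment of the long arm had a median as low as the tip, the fifth or the sixth segment of the short arm. Over all genes, the second segment of the long arm had a median of -0.12, lower than any segment of the short arm. In that segment 7 of 23 genes were called lower, where 6.32% of all genes were.

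**Figure D4:**
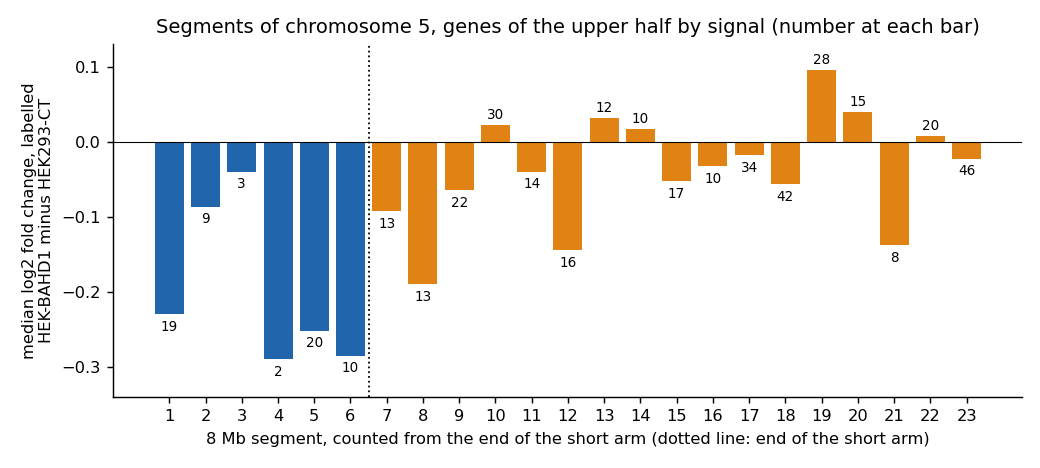
Median log2 fold change (vertical axis, arrays labelled HEK-BAHD1 minus arrays labelled HEK293-CT) for genes of high signal (the upper 50%) in the 23 segments of chromosome 5 of 8 Mb each (horizontal axis), blue for the short arm and orange for the long arm, with the number of genes at each bar. The first 6 bars are all below 0, 4 of them at -0.23 or lower, and the lowest bar of the long arm is -0.19.

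The largest falls were under 1 on the log2 scale. SELENOP, at chr5:42799880-42811892, encodes selenoprotein P, a secreted carrier of selenium. Its log2 signal was 5.68, 5.75 and 5.47 on the arrays labelled HEK-BAHD1, against 6.36, 6.58 and 6.53 on those labelled HEK293-CT. It had the largest log2 fold change of the arm, -0.86 (SE 0.091), although its signal put it in the lower 50%. RICTOR, at chr5:38937920-39074399, encodes the defining subunit of mTORC2, a kinase complex that acts on AKT. RICTOR had 8.09, 8.19 and 8.07 on the arrays labelled HEK-BAHD1, against 8.70, 8.66 and 8.67 on those labelled HEK293-CT, a log2 fold change of -0.56 (SE 0.056). CARD6, a protein with a caspase recruitment domain, had 5.70, 5.75 and 5.25 on the arrays labelled HEK-BAHD1, against 5.94, 6.33 and 6.04 on those labelled HEK293-CT, and with a wide spread (log2 fold change -0.54, SE 0.151) it was not called. The lines did not overlap for any of these genes.

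NIPBL, at chr5:36876769-37066413, loads the cohesin ring onto chromatin. Its log2 signal was 9.05, 9.09 and 8.91 on the arrays labelled HEK-BAHD1, against 9.54, 9.50 and 9.53 on those labelled HEK293-CT (log2 fold change -0.51, SE 0.063). CPLANE1, its neighbour towards the centromere and a factor of cilium formation, had 7.05, 7.17 and 7.04 on the arrays labelled HEK-BAHD1, against 7.57, 7.53 and 7.59 on those labelled HEK293-CT. LMBRD2, a membrane protein, had 7.74, 7.61 and 7.64 on the arrays labelled HEK-BAHD1, against 8.12, 8.19 and 8.12 on those labelled HEK293-CT. The log2 fold changes of CPLANE1 and LMBRD2 were both -0.48 (SE 0.058 each). NUP155, a component of the nuclear pore (-0.25), and WDR70, a WD repeat protein (-0.34), follow NIPBL and CPLANE1 on the map, and they were called lower as well.

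MED10 is a subunit of Mediator, which links transcription factors to RNA polymerase II. It had a log2 signal of 10.50, 10.53 and 10.47 on the arrays labelled HEK-BAHD1, against 10.90, 10.99 and 11.01 on those labelled HEK293-CT (log2 fold change -0.47, SE 0.056). ATPSCKMT, a lysine methyltransferase of a subunit of ATP synthase, had 8.09, 8.23 and 8.09 on the arrays labelled HEK-BAHD1, against 8.52, 8.62 and 8.49 on those labelled HEK293-CT. BRD9, a bromodomain subunit of a SWI/SNF complex, had 6.93, 7.06 and 7.14 on the arrays labelled HEK-BAHD1, against 7.48, 7.32 and 7.57 on those labelled HEK293-CT. The log2 fold change was -0.41 for both ATPSCKMT and BRD9, and neither gene had overlapping groups. C5orf34 had 8.80, 8.93 and 8.65 on the arrays labelled HEK-BAHD1, against 9.12, 9.33 and 9.24 on those labelled HEK293-CT. The non-coding ANXA2R-OT1 had 6.30, 6.34 and 6.13 on the arrays labelled HEK-BAHD1, against 6.67, 6.57 and 6.79 on those labelled HEK293-CT. Its interval overlaps ANXA2R and ANXA2R-AS1, so its signal may not be its own. C5orf34 and BRD9 were each called in only 2 of the 6 fits that left out 1 array, with adjusted p up to 0.0598 and 0.0644 by limma, and ANXA2R-OT1 was not called without HEK293-CT replicate 3 (adjusted p = 0.0544 by limma).

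The largest rises were smaller than the largest falls and lay mostly in genes of low signal. SLC12A7, a potassium and chloride cotransporter at chr5:1050384-1155899, had a log2 signal of 6.60, 6.51 and 6.48 on the arrays labelled HEK-BAHD1, against 6.07, 6.18 and 6.03 on those labelled HEK293-CT (log2 fold change 0.44, SE 0.064). ANKH, a membrane protein that brings pyrophosphate out of the cell, had 9.11, 9.11 and 9.10 on the arrays labelled HEK-BAHD1, against 8.80, 8.79 and 8.86 on those labelled HEK293-CT. UGT3A2, a glycosyltransferase, had 6.34, 6.34 and 6.26 on the arrays labelled HEK-BAHD1, against 6.04, 6.01 and 6.03 on those labelled HEK293-CT. The log2 fold changes of ANKH and UGT3A2 were both 0.29, and of the 6 genes called higher only ANKH had a mean log2 signal of 8 or over. ADAMTS12, a secreted metalloprotease, had 4.14, 4.42 and 4.28 on the arrays labelled HEK-BAHD1, against 4.10, 3.81 and 3.89 on those labelled HEK293-CT, and was not called (log2 fold change 0.35, SE 0.098). UGT3A2 was not called without HEK293-CT replicate 3 (adjusted p = 0.0507 by limma).

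**Figure D5:**
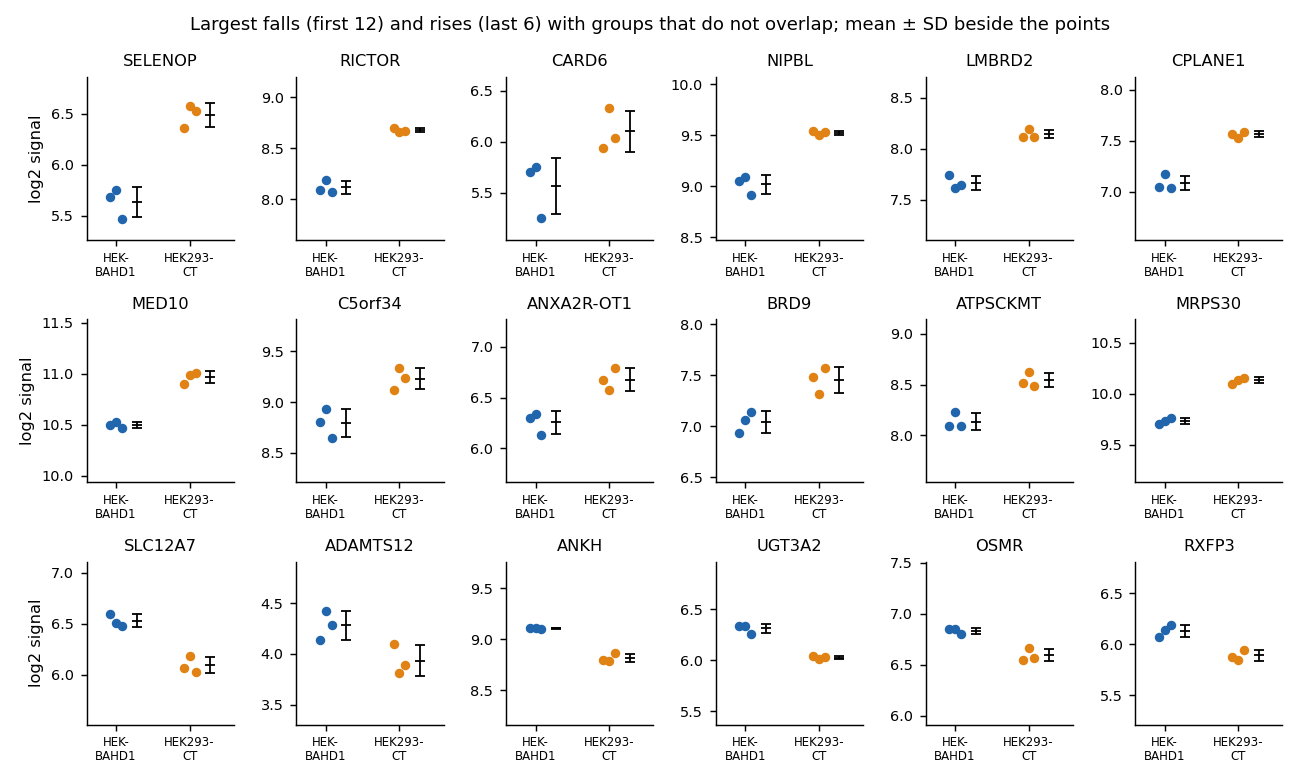
Log2 signal (vertical axis, a range of 1.6 in each panel) on the 3 arrays labelled HEK-BAHD1 (left) and the 3 labelled HEK293-CT (right) for the 12 largest falls and the 6 largest rises among members whose groups do not overlap; each point is 1 array, with the mean and SD beside it. SELENOP has the widest gap of the panels, -0.86, and CARD6 and ADAMTS12, the 2 panels of genes that were not called, the largest standard errors (0.151 and 0.098).

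Upstream sequences of the genes with the largest falls and the largest rise are shown so that their base composition stands beside their values. Each is the run of 250 bases before 1 start of transcription per gene in a RefSeq table (GRCh38.p14), written 5′ to 3′ on the strand of the gene. For 97 of 115 members that start was the outer end of the gene as annotated, and for 18, SLC12A7 among them, it lay elsewhere, so the SLC12A7 sequence lies inside the interval given for the gene above. Capitals mark the motifs GGGCGG (a GC box), CCAAT and TATAAA on either strand, where CCGCCC and ATTGG are the reverse complements of the first pair, and overlapping matches of GGGCGG were counted each. They lie at chr5:42811893-42812142 (SELENOP, minus strand), chr5:39074400-39074649 (RICTOR, minus strand), chr5:40841117-40841366 (CARD6, plus strand) and chr5:1112064-1112313 (SLC12A7, minus strand).
SELENOP: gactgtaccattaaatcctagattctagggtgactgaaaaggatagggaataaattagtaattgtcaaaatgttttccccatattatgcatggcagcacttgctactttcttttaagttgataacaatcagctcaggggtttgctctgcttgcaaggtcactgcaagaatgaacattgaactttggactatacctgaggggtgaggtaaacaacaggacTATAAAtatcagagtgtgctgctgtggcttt
RICTOR: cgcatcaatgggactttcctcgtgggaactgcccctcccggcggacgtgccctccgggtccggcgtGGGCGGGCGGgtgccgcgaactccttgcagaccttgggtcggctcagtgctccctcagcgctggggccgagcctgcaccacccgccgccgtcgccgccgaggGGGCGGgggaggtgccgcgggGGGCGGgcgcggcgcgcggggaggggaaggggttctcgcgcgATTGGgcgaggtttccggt
CARD6: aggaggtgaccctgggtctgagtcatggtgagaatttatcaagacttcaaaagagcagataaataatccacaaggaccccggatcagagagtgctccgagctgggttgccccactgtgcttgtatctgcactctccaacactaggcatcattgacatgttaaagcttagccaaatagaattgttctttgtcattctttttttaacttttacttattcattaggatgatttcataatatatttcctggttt
SLC12A7: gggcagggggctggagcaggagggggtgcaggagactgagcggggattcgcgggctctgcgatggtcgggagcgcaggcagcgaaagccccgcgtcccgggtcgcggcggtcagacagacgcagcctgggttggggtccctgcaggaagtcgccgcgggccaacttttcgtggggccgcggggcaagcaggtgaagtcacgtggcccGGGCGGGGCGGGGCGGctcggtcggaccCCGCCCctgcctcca

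The SELENOP sequence held 1 TATAAA match, no CpG and 39.6% G or C. That of RICTOR held 35 CpG, 4 matches of GGGCGG, 1 of CCAAT on the reverse strand and 76.0% G or C. CARD6 had 2 CpG, 40.0% G or C and no match. SLC12A7, which was higher where RICTOR was lower, had 28 CpG, 4 matches of GGGCGG and 74.4% G or C. RICTOR and SLC12A7, with opposite signs, had upstream sequences of like composition, and SELENOP and CARD6 had sequences poor in CpG. Whether composition goes with direction was not tested. The table held the upstream bases of 115 of the 130 members. Of these, 56.5% had GGGCGG, 31.3% CCAAT and 6.96% TATAAA, where the 14208 measured genes in the table had 57.5%, 34.5% and 8.55% and all 27305 sequences of that length had 42.3%, 33.0% and 11.1%. The share with GGGCGG on the arm was thus near that of the measured genes. Within the upper 50% by signal, GGGCGG was found in 79.3% of the 29 members called lower and in 76.9% of the 26 that were not, against 69.8% of 7607 genes outside the arm. CCAAT was found in 27.6% and 23.1% of those members, against 36.4% outside the arm, and TATAAA in none of either, against 4.85%. A match is a description of the letters only.

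In the list of genome maintenance and cell cycle, 5 of 9 members were called lower and none higher, with a median log2 fold change of -0.31. That is 55.6%, where 6.39% of all probe sets tested and 10.0% of all genes in the upper 50% by signal were called lower. Of all 130 members 27.7% were called lower, and of the members in that upper 50% it was 50.8%. The lists below stand beside the same shares. The genes of this list called lower were NIPBL, BRD9, RAD1, CEP72 and TRIO. RAD1, part of the checkpoint clamp that is loaded at damaged DNA, had a log2 signal of 9.60, 9.55 and 9.55 on the arrays labelled HEK-BAHD1, against 9.86, 9.93 and 9.85 on those labelled HEK293-CT (log2 fold change -0.31, SE 0.053). CEP72, a centrosome protein, and TRIO, a guanine nucleotide exchange factor, had a log2 fold change of -0.31 each. TERT had 6.01, 5.99 and 6.25 on the arrays labelled HEK-BAHD1, against 6.15, 6.07 and 6.16 on those labelled HEK293-CT, so the lines overlapped (log2 fold change -0.04, SE 0.080). SKP2, a substrate receptor of an SCF ubiquitin ligase with a log2 signal between 11.11 and 11.17 on all 6 arrays, had a log2 fold change of -0.04 (SE 0.049) beside the gene LMBRD2 at -0.48.

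In the list of RNA processing, the ribosome and protein synthesis, 8 of 14 measured members (57.1%, near the 50.8% of members of high signal) were called lower and none higher, with a median of -0.24. RPL37 was not analysed here. Next to MED10 and MRPS30, DROSHA had the third largest fall. DROSHA, the nuclear enzyme that cuts primary microRNA transcripts, had a log2 signal of 9.49, 9.51 and 9.50 on the arrays labelled HEK-BAHD1, against 9.93, 9.76 and 9.86 on those labelled HEK293-CT (log2 fold change -0.35, SE 0.060). ICE1, a subunit of the complex that elongates small nuclear RNA transcripts, had -0.34, DNAJC21, a chaperone in ribosome assembly, had -0.29, and NSUN2, an RNA cytosine methyltransferase, had -0.28. The smallest fall called in the list was that of the threonyl-tRNA synthetase TARS1 (-0.20). CCT5, a subunit of the cytosolic chaperonin, had 12.04, 12.02 and 11.95 on the arrays labelled HEK-BAHD1, against 12.07, 12.21 and 12.14 on those labelled HEK293-CT, and was not called (-0.14). MRPL36 was the 1 gene of the list above 0, at 0.14 and not called.

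Of 11 measured genes of mitochondria and metabolism, 2 were called lower (18.2%, where 10.0% of all genes of high signal and 27.7% of all members were). None was called higher, and the median was -0.11. PRKAA1, a catalytic subunit of the AMP-activated protein kinase, had a log2 signal of 9.97, 9.92 and 9.81 on the arrays labelled HEK-BAHD1, against 10.32, 10.25 and 10.28 on those labelled HEK293-CT (log2 fold change -0.38, SE 0.061). NDUFS6, a subunit of respiratory complex I, had 10.84, 10.86 and 10.85 on the arrays labelled HEK-BAHD1, against 11.11, 11.17 and 11.13 on those labelled HEK293-CT (-0.29, SE 0.050). Neither gene overlapped between the lines. SDHA, a subunit of succinate dehydrogenase with near-identical pseudogenes elsewhere, had -0.15, the transhydrogenase NNT -0.10 and the kinase NADK2 0.01, and none of these was called. AMACR was not analysed here. At an unadjusted p under 0.05 by limma, the lists of genome maintenance, protein synthesis and mitochondria had 5, 10 and 4 genes lower and 0 higher. The share of all probe sets at that threshold was not counted, so nothing is read from these counts. The methods' LPE test, with its adjusted p and the threshold on medians, called 5, 9 and 2 of their genes lower and 0 higher. It called 7.3% of all probe sets tested lower.

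Of 11 measured genes of cytokine, hormone and growth factor signalling, 2 were called lower (RICTOR and LIFR) and 2 higher (OSMR and RXFP3), 18.2% each way, where 6.39% and 6.79% of all probe sets tested were, and the median was 0.06. LIFR, the receptor of leukaemia inhibitory factor, had a log2 signal of 9.26, 9.29 and 9.01 on the arrays labelled HEK-BAHD1, against 9.47, 9.56 and 9.52 on those labelled HEK293-CT (log2 fold change -0.33, SE 0.083). OSMR, the receptor subunit for oncostatin M, had 6.85, 6.85 and 6.80 on the arrays labelled HEK-BAHD1, against 6.55, 6.66 and 6.57 on those labelled HEK293-CT (0.24, SE 0.055). OSMR lies between LIFR and RICTOR and its interval overlaps that of RICTOR, so the 2 overlapping genes differed in direction. RXFP3, the receptor of relaxin-3, had 6.07, 6.14 and 6.19 on the arrays labelled HEK-BAHD1, against 5.88, 5.85 and 5.95 on those labelled HEK293-CT (0.24, SE 0.058). The receptors PRLR, GHR, IL7R and NPR3 had a log2 signal between 3.11 and 3.86 on every array, with overlapping groups. LIFR and OSMR were each called in 1 of the 6 fits that left out 1 array, and RXFP3 in none, with adjusted p up to 0.103, 0.10 and 0.0981 by limma. GDNF was not analysed here.

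Genes of cadherins, axon guidance and matrix had low signal, and 1 of 10 measured was called lower (10.0%, where 6.39% of all probe sets tested were) and none higher (median 0.10). The cadherins CDH6, CDH9, CDH10, CDH12 and CDH18, adhesion proteins of the gene-poor middle of the arm, had a log2 signal between 2.96 and 3.87 on all arrays, and a log2 fold change between -0.06 and 0.18. ADAMTS16, a secreted metalloprotease near the tip, had 5.47, 5.48 and 5.47 on the arrays labelled HEK-BAHD1, against 5.69, 6.01 and 5.76 on those labelled HEK293-CT (-0.35, SE 0.085), and its call was lost in 5 of the 6 fits that left out 1 array (adjusted p up to 0.0966 by limma). The complement genes C6, C7 and C9, whose products form the membrane attack complex, had a log2 signal between 2.96 and 3.86, with 0 of 3 called in either direction and a median of 0.00. The Iroquois homeobox genes IRX1, IRX2 and IRX4 had 5.13 to 5.86, with 0 of 3 called and a median of 0.12. PDZD2 was not analysed here. At an unadjusted p under 0.05 by limma, 4 genes of cadherins, axon guidance and matrix were higher and 1 was lower. By the same measure 0 complement genes were lower or higher, and 1 Iroquois gene was higher and 0 lower. The share of all probe sets at that threshold was not counted, so nothing is read from these counts. The methods' LPE test called 0 genes of these 3 lists in either direction.

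Of 13 measured genes of membrane traffic, the cytoskeleton and ubiquitin, 3 were called lower. That is 23.1%, where 6.39% of all probe sets tested and 27.7% of all members were. The 1 called higher was ANKH, which by its role given above could also stand among the transporters. The median of the list was -0.05. MARCHF6, a ubiquitin ligase of the endoplasmic reticulum, had a log2 signal of 10.48, 10.54 and 10.43 on the arrays labelled HEK-BAHD1, against 10.78, 10.68 and 10.75 on those labelled HEK293-CT (-0.25, SE 0.058). EXOC3, a subunit of the exocyst, had 7.78, 7.87 and 7.69 on the arrays labelled HEK-BAHD1, against 8.02, 8.03 and 7.99 on those labelled HEK293-CT (-0.23, SE 0.062), and GOLPH3, a Golgi protein, had -0.20. Without 1 array MARCHF6 kept its call in 2 of 6 fits and EXOC3 in 1 of 6 (adjusted p up to 0.0913 and 0.114 by limma). Of 8 measured transporters, 1 was called lower (12.5%, where 6.39% of all probe sets tested were) and 1 higher (SLC12A7), with a median of 0.06. SLC1A3, a glutamate transporter, had 8.58, 8.59 and 8.42 on the arrays labelled HEK-BAHD1, against 8.81, 8.94 and 8.83 on those labelled HEK293-CT (-0.33, SE 0.069), and its call was lost in 3 of the 6 fits that left out 1 array (adjusted p up to 0.0643 by limma). PDCD6 and DAP were not analysed here.

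The 48 members in none of these lists included 14 called lower (29.2%, near the 27.7% of all members, where 6.39% of all probe sets tested were). Another 2 were called higher (UGT3A2 and the bitter taste receptor TAS2R1). Besides those named above, TMEM267 had -0.39, CCDC127 -0.33, RANBP3L -0.32, RIMOC1 -0.29, TTC33 -0.28, the zinc finger RNA-binding protein ZFR -0.25 and the non-coding SLC9A3-OT1 -0.25. LOC442132, a transcribed pseudogene, had the highest value of the upper 50%, 0.33, but its 3 arrays spread between 6.85 and 7.47 on those labelled HEK-BAHD1, against 6.45 and 7.01 on those labelled HEK293-CT, and it was not called. Neighbours also differed. NDUFS6 was called lower beside the overlapping MRPL36 at 0.14, CEP72 lower beside the overlapping TPPP at 0.02, and ANKH higher beside the overlapping OTULIN at -0.09. Of the genes that the rule leaves out, ZNF131 and ZNF622 were called lower with log2 fold changes of -0.48 and -0.31, and HMGCS1, an enzyme of cholesterol synthesis, was not called at 0.20.

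With any 1 array left out, 15 of the 36 members called lower stayed called: NDUFS6, ICE1, MED10, ATPSCKMT, DROSHA, RAD1, LMBRD2, NIPBL, CPLANE1, WDR70, RICTOR, PRKAA1, SELENOP, TMEM267 and MRPS30. Of the 6 called higher, SLC12A7 and ANKH stayed called. The count of members called lower was then between 17 (without HEK293-CT replicate 3) and 27 (without HEK-BAHD1 replicate 2), while all 36 and all 6 kept their direction in every setting. These refits use the arrays that chose the arm, and some of them cannot change a direction, so nothing is read from this. Fewer arrays also lowered the number of calls over all probe sets, which was 581 lower and 806 higher without HEK293-CT replicate 3, against 1345 lower and 1430 higher with all 6. With each array centred on its median, 41 members were called lower and 4 higher, where all probe sets gave 1912 lower and 1125 higher and their median moved to -0.03, against 0.01 uncentred.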

How the data were processed

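Total RNA was hybridised to Affymetrix HuGene ST arrays, 3 per line. The deposited log2 values, with 2 decimals, were made by the authors with RMA, a method that subtracts background, brings the arrays to a common distribution and condenses each gene's probes into 1 value. The version of RMA and the annotation build are not given in the sources used here. No filter on dim probe sets was applied, and array medians lay between 5.46 and 5.56. Of 28869 probe sets, 19310 named 1 gene, 1752 several and 7807 none, and symbols and positions were taken from RefSeq (GRCh38) through gene identifiers. Precision is limited by the number of arrays.

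The 21062 probe sets naming a gene were tested with limma 3.58.1 in R 4.3.3 (lmFit and eBayes, no replicate block) and adjusted by Benjamini-Hochberg. The threshold of 0.2 on the difference of medians follows the methods of the study. Same-numbered arrays of the lines did not deviate together (correlations -0.08, 0.07 and -0.04). The deposited series has another number than the one the paper gives for its arrays, and was taken as the same experiment because lines and replicates match. The members and lists were chosen with earlier results of these data known. Named were the 12 largest falls and the 6 largest rises among members without overlap between lines, at most 3 called genes of each of 9 lists, TERT, NIPBL, RICTOR, DROSHA and the 2 genes nearest to 48 Mb on each side; other genes were named after their values were seen. Upstream sequences came from RefSeq (GRCh38.p14), and the fits were tested on simulated data. Alternatives were other scalings, tests, filters and models of the variance, a block for the replicate number, and the omission of single arrays. The LPE test of the methods was written anew from its published description.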

Additional observations from a re-analysis of the deposited data

How the results depend on the processing

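The median of the arm stayed below 0 under every alternative, while the counts moved. The same 6 arrays chose the arm, so this is a description. Some alternatives, such as the replicate block, leave the log2 fold changes as they were. Members called lower numbered 36, and 17 to 27 when 1 array was left out. Members called higher numbered 6, and 3 with the replicate block, 2 by the methods' LPE test, 3 when every probe set was tested and 2 to 4 when 1 array was left out. Of the upper 50% by signal, 32 members were called lower, 21 with the replicate block and 15 to 24 when 1 array was left out; this count was added after seeing the data. The replicate numbers do not pair the arrays, and with the block 24 members were called lower. The median log2 fold change of all members was -0.055. It was -0.092 with the arrays centred on their medians, -0.177 without the dimmest 30% of probe sets (89 members left) and -0.074 to -0.047 when 1 array was left out. In the upper 50% the median was -0.23, against -0.27 centred, -0.20 with quantile normalization once more and -0.25 to -0.20 when 1 array was left out. The difference between lines of the mean array displacement was -0.21, and -0.24 centred, an alternative added after seeing the data. The log2 fold change of TERT, -0.043, lay between -0.127 and 0.003 when 1 array was left out, and turned above 0 without HEK-BAHD1 replicate 2. OSMR was not called under 10 of 14 alternatives, RXFP3 under 11, EMB, ADAMTS16 and EXOC3 under 8, LIFR under 7 and MARCHF6 under 6, and 14 of the 26 called genes that were named kept their call in all of them. The cause of these changes was not tested. An exact permutation test of 3 arrays against 3 cannot go below 0.1, so single values were left without one.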
